A study of Mus musculus with 2 samples.

Results

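Histone genes were compared between 2 RNAs from mouse embryonic fibroblasts (MEFs, connective tissue cells grown from embryos), one labelled as lacking the kinase Lats2 (KO, LATS2-/-) and one as wild type (WT, LATS2+/+). The members were all probes whose gene name on the array was a Hist1h to Hist4h, H2af, H3f3a, H3f3b or H1f name, which gave 71 of the 41174 probes and 49 genes. Of these genes, 36 belong to the replication-dependent histone clusters and 13 are variants. Both RNAs came from untreated MEFs of C57BL/6J mice, and no age, passage or number of embryos was given. The genotype fields of the labels read LAT2, whereas the titles read LATS2. Each RNA was hybridised on 2 arrays that read a red and a green dye together, with the KO RNA in Cy5 (red) on the first and in Cy3 (green) on the second.

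The pair of arrays was taken as a dye swap of 1 pair of RNAs and counted as 1 replicate, so no test between genotypes was possible. Values are log2 ratios of the RNA labelled KO over the RNA labelled WT, given for the Cy5 array and then the Cy3 array, so their spread covers error of hybridisation and dye alone. That spread was an SD of 0.167 for a single array over the 60 histone probes above background with a value on both arrays, or 0.118 for the mean. Levels are normalised intensities in arbitrary units, which include an offset of 50. Of the 4 probes for Lats2 itself, 3 were higher in the RNA labelled KO, with means of 0.56, 0.57 and 0.63, and the remaining one was at -0.35. Which probes lie in the deleted part was not analysed here. Most probes of the targeted gene thus go against the label, and every direction below rests on the labels.

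Histones are the proteins around which DNA is wound, with H2A, H2B, H3 and H4 in the core of the nucleosome and H1 as the linker that binds the DNA between nucleosomes. Most are made during S phase from clustered, replication-dependent genes, whose mRNAs usually end in a stem-loop that is bound by Slbp and not in a poly(A) tail. Variant histones such as H2A.Z, H3.3 and H1.0 are encoded by separate genes with polyadenylated mRNAs and are made throughout the cell cycle. Because the labels describe cDNA primed with oligo-dT, messages without a poly(A) tail are poorly sampled, and the part of this in the ratios was not tested. In bulk RNA, fewer cells in S phase and less histone mRNA per cell cannot be told apart.

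A value on both arrays was obtained for 48 of the 49 genes, Hist2h2ac being the exception, as both of its probes carried outlier flags. H1fnt and Hist1h1t, linker histones of male germ cells, did not rise clearly over background in either RNA. This left 46 genes, 34 replication-dependent and 12 variant, each represented by its brightest usable probe. Of these, 30 had a lower level in the RNA labelled KO by each array and 13 a higher one by each, beside 41.4% and 40.2% of the 15877 genes of the array that were above background. The median over the 46 genes was -0.35, against -0.0032 over all genes. The median was -0.20 for the replication-dependent genes and -0.45 for the variants. The former depended on the probes and arrays taken. On the Cy5 array it was -0.12 with the same probes, and -0.0903 with genes and brightest probes chosen on that array alone. Over both arrays it was -0.082 with the probes of a gene averaged and -0.069 without probes that list several genes. For genes above background in both RNAs it was -0.38.

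A gene was called when both arrays passed a fold threshold in the same direction. At 2-fold, 1 histone gene was higher (Hist1h1c) and 2 were lower (H1f0 and H2afv), where the background over all genes was 2.95% higher and 2.59% lower. At 1.5-fold, Hist1h4i was added among the higher genes, by a probe that lists no RefSeq gene, against a background of 7.05%. The lower genes at 1.5-fold were 9 of 46, or 19.6%, against a background of 7.15%, with H2afy3, H2afz, Hist1h1b, Hist1h2af, Hist1h2ai, Hist1h2ak and Hist3h2a beside H1f0 and H2afv. Of the 9, the probes of Hist1h2af and Hist1h2ai list transcripts of 4 genes each, and 7 lower calls were left without them. The H2afv probe lists no RefSeq gene.

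**Figure D1:**
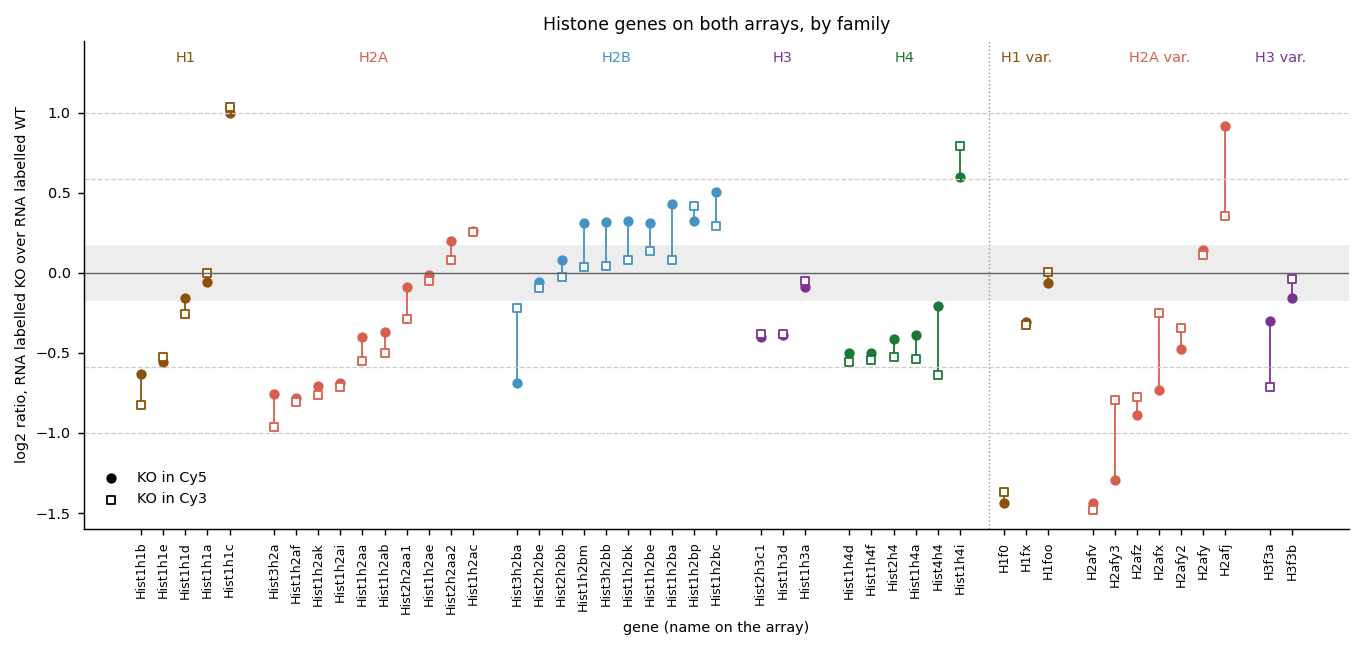
Log2 ratio of the RNA labelled KO over the RNA labelled WT (vertical axis) for the 46 histone genes above background, by family; filled circles are the array with KO in Cy5 and open squares the array with KO in Cy3. Dashed lines mark 1.5-fold and 2-fold, and the grey band is ± the SD of 0.167 for a single array. H1f0 and H2afv lie lowest, Hist1h1c highest, and most H2B genes lie above 0.

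Among the linker histones, Hist1h1c, which encodes H1.2, had levels of 8520 and 8690 in the RNA labelled KO and of 4260 and 4230 in the RNA labelled WT on the Cy5 and Cy3 arrays. Its log2 ratios were 1.0 and 1.04, a 2.03-fold higher level, and the RNAs did not overlap. The call rests on a narrow margin, since the Cy5 array gave 1.0002 here and 0.998 without background subtraction. H1f0, which encodes H1.0, a linker histone that accumulates in differentiated and resting cells, showed the opposite. Its brightest probe read 1230 and 1250 in the RNA labelled KO and 3340 and 3230 in the RNA labelled WT, with log2 ratios of -1.44 and -1.37, or 37.8% of the WT-labelled level. Both dimmer H1f0 probes were lower too, at -1.11 and -0.97.

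By their brightest probes the other linker genes lay between these. Hist1h1d (H1.3) was at -0.15 and -0.26 by its brightest probe, but at 2.46 and 2.23, above Hist1h1c, by its other probe, which was the brighter on the Cy5 array. Hist1h1b (H1.5) was at -0.63 and -0.83, and Hist1h1e (H1.4) at -0.56 and -0.53. H1fx (H1.10), a linker variant, was at -0.31 and -0.32 by its brightest probe, which has no annotated position and lists no RefSeq gene. A dimmer probe on chromosome 6 was at -0.59 and -0.86, past 1.5-fold on both arrays. Hist1h1a (H1.1) and H1foo, the oocyte linker histone, had means of -0.03 each, within the spread between the arrays. The highest and the lowest linker gene thus differed in direction, and the median of the 5 replication-dependent H1 genes was -0.21.

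The 200 bases before the RefSeq start (GRCm38.p6) are shown for both ends of this range by brightest probe. These linker genes, Hist1h1c (replication-dependent) and H1f0 (a variant), are shown because they differ here in the letters found. Capitals mark CCAAT (the CCAAT box) or AAACACA (the H1 box) on either strand.
Hist1h1c (H1f2, chr13:23738607-23738806, plus strand): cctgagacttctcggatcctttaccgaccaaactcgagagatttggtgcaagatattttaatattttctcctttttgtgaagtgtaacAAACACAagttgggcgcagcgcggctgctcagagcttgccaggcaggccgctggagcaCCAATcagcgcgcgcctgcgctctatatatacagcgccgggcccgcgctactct
H1f0 (H1f0, chr15:79028012-79028211, plus strand): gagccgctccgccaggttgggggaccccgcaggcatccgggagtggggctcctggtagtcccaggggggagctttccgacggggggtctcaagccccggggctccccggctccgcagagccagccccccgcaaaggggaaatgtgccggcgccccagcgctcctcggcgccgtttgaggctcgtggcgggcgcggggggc

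The Hist1h1c window held a CCAAT box beginning 54 bases before the start and an H1 box beginning 112 bases before it, while the H1f0 window held neither. Over the 6 replication-dependent H1 promoters, 5 held AAACACA and 6 held CCAAT, whereas 4.8% and 29.3% of all 32851 RefSeq promoters did. Of the 4 variant H1 promoters, 0 held AAACACA and 1 held CCAAT, so the contrast shown goes with the kind of gene. Hist1h1b and Hist1h1e, which were lower, held both as well, so these letters did not separate the genes by direction.

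Among the H2A variants, both H2A.Z genes were lower. H2A.Z replaces H2A at promoters and enhancers, and its paralogs are H2afz (H2A.Z.1, now H2az1) and H2afv (H2A.Z.2, now H2az2). H2afv read 16700 and 14500 in the RNA labelled KO and 45200 and 40600 in the RNA labelled WT, with ratios of -1.44 and -1.48, or 36.4% of the WT-labelled level. Its only probe lists no RefSeq gene, so its assignment to H2afv rests on the name on the array. H2afz read 18700 and 17300 against 34600 and 29600, with ratios of -0.89 and -0.77, or 56.2%. For both genes each array gave the lower value in the RNA labelled KO. A second H2afz probe, placed on chromosome 6, where the gene is not, was not above background.

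The windows of both H2A.Z genes are shown as the paralogs whose brightest probes were lower together, with CCAAT on either strand in capitals.
H2afv (H2az2, chr11:6444444-6444643, minus strand): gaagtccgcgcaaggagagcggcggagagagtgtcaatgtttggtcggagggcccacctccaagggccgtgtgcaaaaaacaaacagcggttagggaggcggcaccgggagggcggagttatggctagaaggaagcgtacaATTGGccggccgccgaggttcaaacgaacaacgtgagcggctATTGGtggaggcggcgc
H2afz (H2az1, chr3:137864287-137864486, plus strand): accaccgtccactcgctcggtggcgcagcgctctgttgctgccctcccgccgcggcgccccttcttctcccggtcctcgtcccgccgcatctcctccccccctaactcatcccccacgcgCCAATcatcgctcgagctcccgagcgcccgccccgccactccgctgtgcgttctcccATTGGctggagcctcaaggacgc

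Each held 2 CCAAT boxes, beginning 17 and 59 bases before the start of H2afv and 23 and 80 bases before that of H2afz, and neither held TATAAA. H2afy3 (now Macroh2a3), a relative of the macroH2A genes, read 5750 and 7130 against 14100 and 12400, and its ratios of -1.29 and -0.80 lay further apart than the SD of the arrays. Of the macroH2A genes proper, whose products carry a large non-histone domain and are known from silent chromatin, H2afy was at 0.14 and 0.11 and H2afy2 at -0.48 and -0.34, or at -1.14 and -0.87 by Feature Extraction's ratio, which places H2afy2 past 1.5-fold. The probe of H2afy2 lists transcripts of 2 genes.

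H2afx encodes H2A.X, which is phosphorylated around DNA breaks, and its ratios were -0.73 and -0.25. H2afj, an H2A variant known to accumulate in senescent fibroblasts, was the highest variant by its usable probe, at 0.92 and 0.35. Its brighter probe was flagged on the Cy3 array and read -0.10 on the Cy5 array, so its probes disagree in direction. The H3.3 genes encode the same protein, which is deposited outside replication, and they differed from each other. H3f3a was at -0.30 and -0.71, with its other probes at means of -0.58 and -0.57, while H3f3b was at -0.15 and -0.04. All 3 H3f3a probes were lower on both arrays and further from 0 with KO in Cy3.

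**Figure D2:**
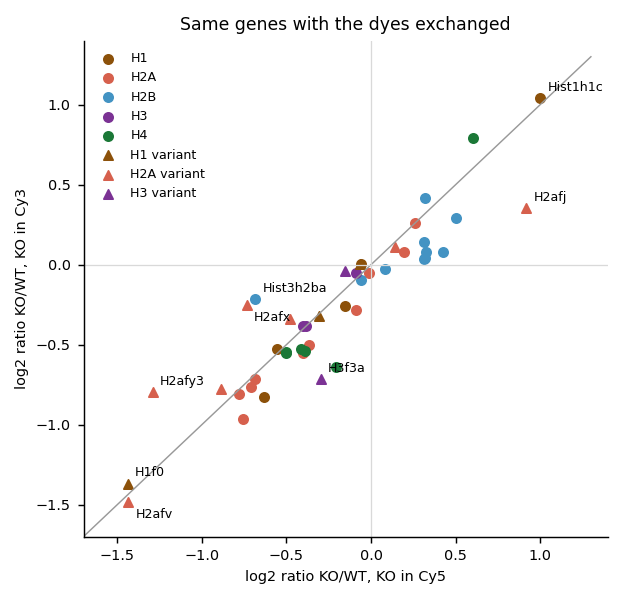
Log2 ratio with KO in Cy5 (horizontal axis) against the log2 ratio of the same gene with KO in Cy3 (vertical axis) for the 46 histone genes; circles are replication-dependent genes, triangles variants, and the line marks equal values. H1f0, H2afv and Hist1h1c lie on the line, while H2afy3, H2afx, H2afj and H3f3a lie off it.

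Over the 46 genes the arrays correlated with a Pearson's r of 0.922 and a Spearman's rho of 0.914, across genes that share both RNAs and, in part, sequence. The ratio was higher on the Cy5 array for 25 of the 34 replication-dependent genes and for 9338 of all 15877 genes. For 9 of the 46 genes the mean lay within the SD of a single array. Such genes, among them Hist2h2be, Hist2h2bb and H3f3b, are not told apart from an equal level here.

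The replication-dependent genes were divided by the histone they encode. The 10 H2A genes had a median of -0.46 and ranged from -0.86 to 0.26, with 8 lower on both arrays, beside 41.4% of all genes, and 4 past 1.5-fold, beside 7.15%. Hist1h2af read 5760 and 6090 in the RNA labelled KO and 9900 and 10700 in the RNA labelled WT, with ratios of -0.78 and -0.81. Hist1h2ak gave -0.71 and -0.76, Hist1h2ai -0.69 and -0.71, and Hist3h2a -0.76 and -0.96. By these probes both arrays placed the RNA labelled KO below the RNA labelled WT, while a second Hist3h2a probe was higher on both arrays, at 0.42 and 0.53. The highest H2A gene, Hist1h2ac, was at 0.26 on both arrays, an observed 1.20-fold higher level in the KO-labelled RNA. It lacked a clear signal over background in the WT-labelled RNA. By Feature Extraction's ratio Hist1h2ac was at 1.23 and 1.74.

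The 10 H2B genes, whose products pair with H2A in the nucleosome, had a median of 0.19. Of these, 7 (70%) were higher on both arrays and 2 (20%) lower, beside 40.2% and 41.4% of all genes. None reached 1.5-fold, beside 7.05% of all genes higher and 7.15% lower. Hist1h2bc was the highest by the normalisation used here, with levels of 5940 and 5500 against 4190 and 4500 and ratios of 0.50 and 0.29. Hist1h2bp followed at 0.32 and 0.42, and was above Hist1h2bc at a mean of 0.60 with an offset of 10 and 0.88 by Feature Extraction's ratio. Hist1h2be was at 0.31 and 0.14, an observed 1.17-fold higher level in the KO-labelled RNA, and at 1.37 by Feature Extraction's ratio. Its probe did not rise clearly over background in the WT-labelled RNA, and its Cy3 ratio lay within the SD of a single array. Hist3h2ba was the lowest at -0.68 and -0.22. The H2B median was 0.32 on the Cy5 array and 0.06 on the Cy3 array, so its size rested mainly on the Cy5 array. The H2A and H2B ranges overlapped, and the difference between them could not be tested.

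Most H3 and H4 genes, whose products form the central tetramer of the nucleosome, lay on the lower side. Hist1h3d was at -0.39 and -0.38 and Hist2h3c1 at -0.40 and -0.38. Hist1h3a had a mean ratio of -0.07, within the SD of a single array, and no clear signal over background in the KO-labelled RNA. Its levels are thus not told apart here. Of the 6 H4 genes, 5 (83.3%) were lower on both arrays, beside 41.4% of all genes. The means of these 5 ran from -0.42 (Hist4h4) to -0.53 (Hist1h4d). Hist1h4i was the exception, with levels of 1330 and 1390 against 878 and 804 and ratios of 0.60 and 0.79. All H4 genes encode the same protein, so by this probe the direction of Hist1h4i differed from that of genes with an identical product. The probe lists no RefSeq gene and is placed only on bases 22048045 to 22048051, so its assignment to Hist1h4i is uncertain.

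Many of these probes cannot be assigned to a single copy. For 11 of the 34 replication-dependent genes the array's annotation lists transcripts of up to 4 genes for the probe used, and these probes gave close values within a family. The multi-copy H2B probes lay at 0.17, 0.18 and 0.20, those for H3 at -0.38 and -0.39, and those for H4 between -0.46 and -0.53. Of the H2A ones Hist1h2af and Hist1h2ai lay at -0.79 and -0.70 and Hist2h2aa1, from another cluster, at -0.19. The median over the 11 was -0.39, and over the 23 genes whose probe lists 1 gene or none it was -0.07. For H4 the single-copy probes of Hist2h4 (-0.47) and Hist4h4 (-0.42) lay near the multi-copy ones, as did a second Hist1h4d probe that lists only its own gene (-0.52).

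Promoter windows of 200 bases are shown for 1 gene of each core family. They set genes that were lower by their brightest probe (H2A, H3, H4) beside an H2B gene that was not. The probes of Hist1h2bk, Hist1h3d and Hist1h4f list 4 genes each, so their ratios cannot be tied to the window shown. A second Hist1h2bk probe was at 0.435 and -0.11. Capitals mark CCAAT (the CCAAT box), TATAAA (the TATA box) and ATTTGCAT (the octamer known from H2B promoters) on either strand.
Hist1h2ak (H2ac15, chr13:21753913-21754112, minus strand): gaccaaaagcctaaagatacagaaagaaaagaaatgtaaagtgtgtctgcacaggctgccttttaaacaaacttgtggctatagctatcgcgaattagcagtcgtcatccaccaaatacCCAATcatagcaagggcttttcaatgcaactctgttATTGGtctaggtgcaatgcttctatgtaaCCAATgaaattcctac
Hist1h2bk (H2bc12, chr13:22035621-22035820, plus strand): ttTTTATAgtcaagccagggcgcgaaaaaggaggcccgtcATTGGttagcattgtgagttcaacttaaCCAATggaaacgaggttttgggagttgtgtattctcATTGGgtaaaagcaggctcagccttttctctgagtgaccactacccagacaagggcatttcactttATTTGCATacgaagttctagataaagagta
Hist1h3d (H3c4, chr13:23575563-23575762, plus strand): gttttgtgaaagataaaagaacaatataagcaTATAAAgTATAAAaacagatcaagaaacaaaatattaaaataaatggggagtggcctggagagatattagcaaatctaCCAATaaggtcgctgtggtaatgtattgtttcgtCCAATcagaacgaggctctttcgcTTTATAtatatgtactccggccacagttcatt
Hist1h4f (H4c6, chr13:23551669-23551868, minus strand): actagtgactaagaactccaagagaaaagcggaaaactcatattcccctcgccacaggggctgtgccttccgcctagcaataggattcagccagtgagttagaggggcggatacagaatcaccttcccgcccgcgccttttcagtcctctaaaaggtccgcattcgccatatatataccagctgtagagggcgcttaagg

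The Hist1h2bk window held the octamer beginning 30 bases before the start and 3 CCAAT boxes, and the Hist1h2ak window 3 CCAAT boxes with no octamer. Over the families the octamer was found in 5 of 8 H2B windows, which cover 7 genes, and in 5 of 10 H2A windows, beside 1.38% of all promoters. It was in no H1, H3 or H4 window of the replication-dependent genes. The H2A genes that held it ranged from -0.86 (Hist3h2a) to 0.26 (Hist1h2ac), and those that did not from -0.79 (Hist1h2af) to 0.14 (Hist2h2aa2). CCAAT was found in all 10 H2A and all 8 H2B windows and in 2 of 5 H4 windows, and TATAAA in 15 of the 42 histone windows against 9.96% of all promoters.

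Order along the chromosome was examined for the Hist1 cluster on chromosome 13, which holds 24 of the genes above background. By the array's coordinates (mm8) the probes fall into a block of 7 genes from 21729735 to 22048051 and a block of 17 genes from 23541396 to 23942314. By the sign of the mean, 3 genes of the first block were lower and 4 higher, and 12 of the second were lower and 5 higher. On both arrays, 14 of the 24 genes (58.3%) were lower and 9 (37.5%) higher, beside 41.4% and 40.2% of all genes. Hist1h1a, at a mean of -0.03, changed sign between the arrays. Hist1h2bm, Hist1h2ak, Hist1h1b and Hist1h2ai follow each other at the start of the first block with means of 0.17, -0.74, -0.73 and -0.70, so the first differed in direction from the next 3. The probe of Hist1h2bm lists 4 genes and was at 0.04 on the Cy3 array. Hist1h2ba and Hist1h2aa, testis-type H2B and H2A genes that start 281 bases apart on opposite strands, were at 0.25 and -0.48 by their probes. Hist1h2ba was at 0.08 on the Cy3 array. The Hist1h2aa probe was bright, at 45700 and 40300 in the RNA labelled KO and 60400 and 59100 in the RNA labelled WT. Whether it reads that gene alone was not tested. Of the germ cell markers Tnp1, Prm1 and Prm2 were above background, and Ddx4, Dazl and Dppa3 were not.

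**Figure D3:**
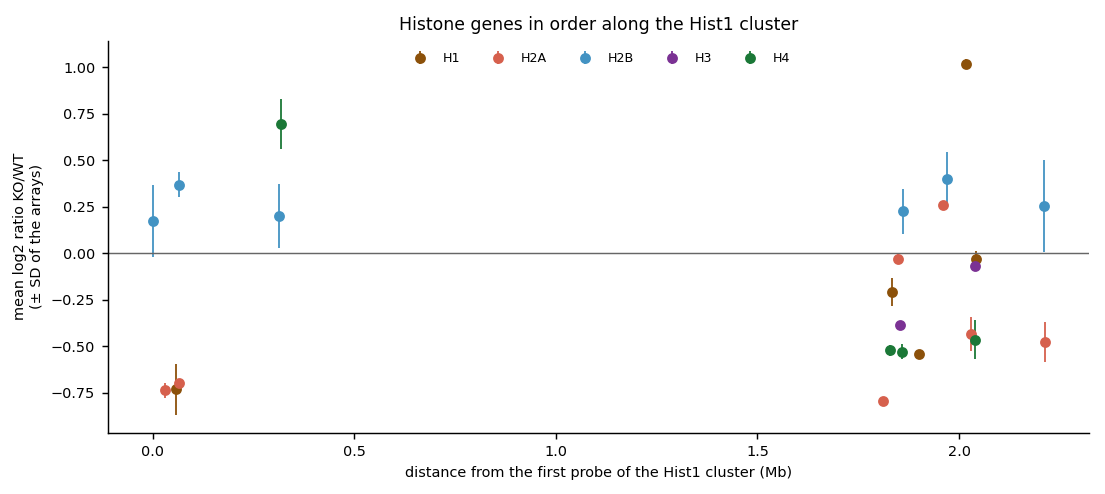
Mean log2 ratio of KO over WT (vertical axis, bars ± SD of both arrays) of the 24 Hist1 genes above background against distance from the first probe of the cluster in megabases, coloured by histone family. Genes of both signs lie in each block, and the H2B genes shown lie above 0.

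Several genes had more than 1 probe. For 10 genes at least 2 probes were above background, and in 3 of them the probes differed by over 0.5. For Hist1h1d (H1.3) the brighter probe, on chromosome 13 from 23563048 to 23563107, was at -0.15 and -0.26. The other probe, which starts 1751 bases away and is the dimmer over both arrays, read 663 and 476 in the RNA labelled KO and 121 and 101 in the RNA labelled WT, with ratios of 2.46 and 2.23, a 5.08-fold higher level. This was the largest ratio of any histone probe, and the gene's call rests on which probe is taken. Hist1h1e had a dimmer probe at 0.37, 2320 bases from the brighter one at -0.54. The probes of Hist3h2a ranged from -0.86 to 0.47 over 736 bases.

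**Figure D4:**
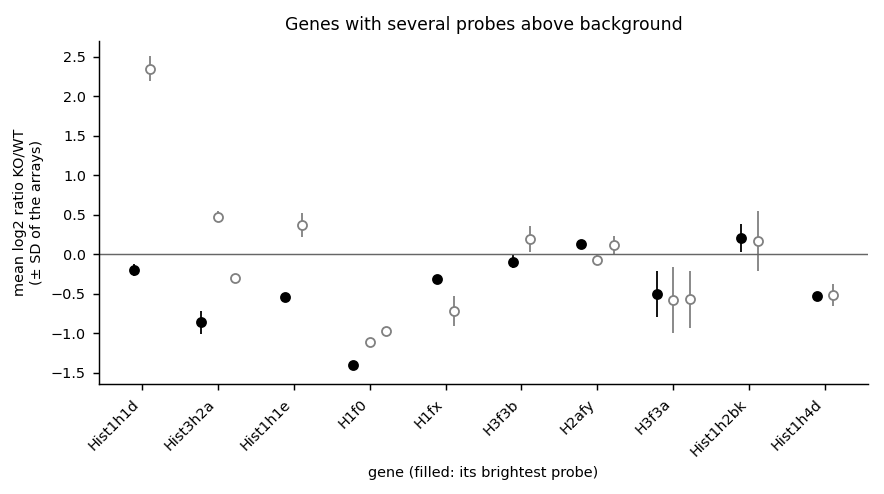
Mean log2 ratio of KO over WT (vertical axis, bars ± SD of both arrays) of each probe above background for the 10 histone genes with several such probes; filled points are the brightest probe of the gene. The probes of Hist1h1d, Hist3h2a and Hist1h1e differ by 2.55, 1.33 and 0.91, while those of H1f0 and H3f3a share a direction.

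The genes that make, carry and use histones were set beside them. Of 41 DNA replication and S phase genes above background, 31 (75.6%) were lower on both arrays and 4 (9.76%) higher, beside 41.4% and 40.2% of all genes, with a median of -0.27. Past 1.5-fold, 3 were lower, or 7.32%, which is near the 7.15% of all genes. Rrm2, a subunit of ribonucleotide reductase, was the highest at 1.26 and 1.11, and Gins3, a subunit of the replicative helicase, the lowest at -1.13 and -1.1. Mcm4 (-0.87) and Gins1 (-0.72) also passed 1.5-fold, and the sliding clamp gene Pcna was at -0.40 and -0.89. S phase genes thus lay on the same side of 0 as most histone genes, and whether they go together through the share of cells in S phase was not tested.

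The 15 genes of histone mRNA synthesis and processing had a median of -0.05, with none past 2-fold and 2 past 1.5-fold, both lower, or 13.3% beside 7.15% of all genes. These were Thex1 (-0.80), the exonuclease now called Eri1, which trims the histone stem-loop, and Sympk (-0.61), a scaffold of the cleavage complex. Cpsf3, its endonuclease, was the highest at 0.47. Slbp was at 0.09 and -0.12 and Npat, the coactivator of histone gene transcription, at 0.03 and 0.12, both within the spread between the arrays. Casp8ap2 was at -0.53 and -0.79, a lower mean than that of Sympk, but was not called. Of the 15 genes, 7 (46.7%) were lower on both arrays and 3 (20%) higher, beside 41.4% and 40.2% of all genes.

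Of the 18 histone chaperones and exchange factors the median was -0.10, and 2 passed 1.5-fold, both lower, or 11.1% beside 7.15% of all genes. Nasp, a chaperone of H3, H4 and H1, was at -0.92 and -0.84, and Asf1b, an H3-H4 chaperone of dividing cells, at -0.86 and -0.67. Its paralog Asf1a was at 0.31 and 0.14, and Supt16h, a subunit of the FACT complex that handles H2A-H2B, was the highest at 0.53. Anp32e, which removes H2A.Z, was at -0.38. Outside the member names, the centromeric H3 variant gene Cenpa was at -0.89 and -0.94 and the spermatid linker gene Hils1 at -0.63 and -0.57.

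**Figure D5:**
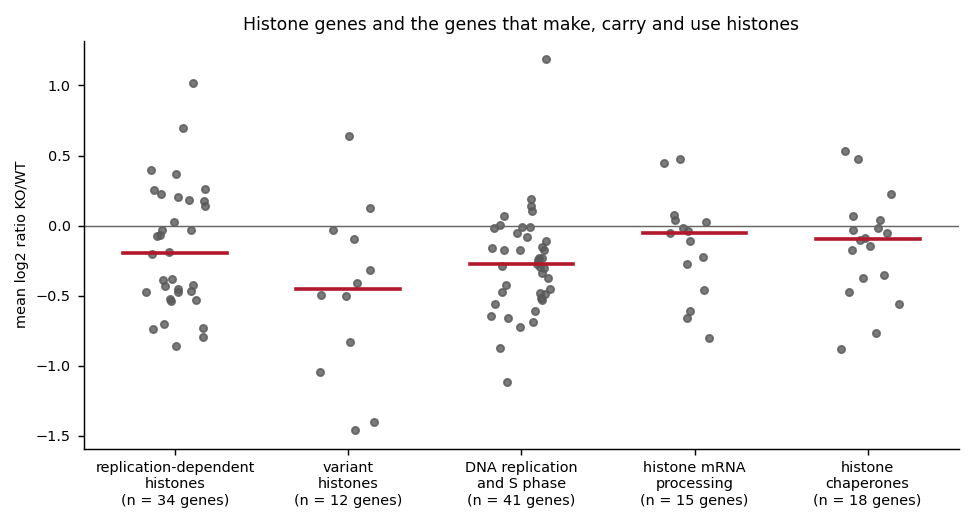
Mean log2 ratio of KO over WT (vertical axis) of each gene above background, for the replication-dependent and variant histone genes and 3 lists of related genes; red lines are medians. The medians are -0.20, -0.45, -0.27, -0.05 and -0.10 from left to right.

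Markers of other cells moved as follows. All 12 measured fibroblast markers were above background, with a median of -0.43, Postn being the lowest at -1.69 and Fn1 the highest at 0.90. Of 9 blood and macrophage markers 5 were above background, with a median of 0.14, while Ptprc, Emr1, Itgam and Hba-a1 were not. The 5 were Lyzs (1.1), Lyz (0.67), Cd68 (0.14), Hbb-b1 (0.0036) and Csf1r (-0.05). Krt19 (2.12) was the only 1 of 5 epithelial markers above background, and none of 6 endothelial, 2 of 6 muscle, 1 of 6 neural and 3 of 6 germ cell markers were. The part of these differences in the histone values was not tested.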

How the data were processed

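Total RNA of LATS2+/+ and LATS2-/- MEFs was amplified with an oligo-dT primer, labelled and hybridised to whole mouse genome oligonucleotide arrays. The authors deposited, from Agilent Feature Extraction 10.5.1.1, the mean signal and local background of each spot as intensity and a log10 ratio of Cy5 over Cy3. They also deposited a table of log2 ratios, which equalled that ratio with both arrays turned the same way. Intensities were corrected with limma 3.58.1 (normexp, offset 50), which pulls dim probes towards 0, and normalised by loess within each array. Control spots and outlier-flagged spots were left out. No spot was saturated. Genes were called when both arrays reached 2-fold (the fold threshold of the study's methods) or 1.5-fold and the probe was well above background on both arrays in the RNA it was higher in. Both arrays lay on 1 slide, so no slide batch separates them, and each dye orientation is 1 array, so dye and array cannot be told apart.

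Named were all genes called, the 5 highest and 5 lowest replication-dependent genes above background in both RNAs, all variants above background, and from each list the genes called at 2-fold with the extremes of the histone lists; the remaining names were chosen after their values were seen. A fold against an RNA not above background is the brighter level over the higher of the dim level and the lowest signal above background. It leaves out the error between arrays, so it is no guaranteed minimum. Histone members and lists were chosen with earlier results of these data known. All 49 names matched a GRCm38.p6 gene table, 46 under another current symbol. Motifs were searched on both strands in the 200 bases before each RefSeq start. Tables were made with Python 3.11.15, pandas 2.3.3 and numpy 2.4.6.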

Additional observations from a re-analysis of the deposited data

How the results depend on the processing

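The sign of both group medians and of the mean ratio of all genes called at 1.5-fold was the same under every scaling of the ratios, and among the 46 genes above background H3f3b and Hist2h2bb alone changed sign. The 2-fold lower count was 0 with median centring and 0 by the methods' t-test after Benjamini-Hochberg adjustment, against 2 before it. That t-test could draw only on the arrays of 1 pair of RNAs, so it is no test between genotypes. The 2-fold higher count was 3 with Feature Extraction's ratio or the deposited table, which added the dim Hist1h2ac and Hist1h2be, 0 with median centring, 0 without background subtraction (Hist1h1c at 0.998 on the Cy5 array, from 1.0002) and 0 by the adjusted t-test, and from 1 to 2 with either array alone, the Cy5 array adding Hist1h1d because its other probe is the brighter there. The 1.5-fold higher count was 5 with Feature Extraction's ratio or the deposited table and 0 with median centring, and the 1.5-fold lower count was 0 with median centring. Without loess a dye effect that varies with intensity stays in the ratios, and H2afv read -0.25 on one array and -2.39 on the other. With median centring H2afz read 0.29 and -1.68, so the sign of its mean hides a difference between the arrays. Hist1h1b, Hist1h2af, Hist1h2ai, Hist1h2ak and Hist3h2a also differed in sign between the arrays. The remaining lower calls, H1f0, H2afv and H2afy3, did not. The replication-dependent median was -0.35 with Feature Extraction's ratio, -0.39 with the deposited table and -0.082 when the probes of a gene were averaged. It was -0.38 for genes above background in both RNAs, and -0.069 without probes listing several genes (chosen after the data were seen). With either array alone, and the brightest probes chosen on it, the median ran from -0.24 to -0.0903. The variant median was -0.53 both by Feature Extraction and by the deposited table, -0.38 with median centring, -0.49 with offset 10 and -0.50 without background subtraction, and from -0.39 to -0.33 with either array alone. The cause of these shifts was not tested. No paired analysis was possible because the arrays are 1 pair of RNAs. With 2 arrays of 1 pair of RNAs, their number limits the precision, and dim probes have compressed ratios.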
